A study of Mus musculus with 8 samples.

Results

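The 32 genes described here encode the enzymes of glycolysis, the lactate dehydrogenase subunits, the carrier and dehydrogenase complex that bring pyruvate into the mitochondrion, and most enzymes of the citric acid cycle. They were chosen by gene symbol from the count table of a hippocampal RNA-seq study, which has 46078 gene entries, and each of the 32 matched a single entry. The study compared 4 libraries of wild-type mice (WT) with 4 libraries of mice carrying the Tg(Camk2a-cre)2Gsc transgene (Cre, genotype Cre+/-, line also called CamiCre), all 9 weeks old and of the C57BL/6J strain. In that line regulatory DNA of Camk2a drives Cre recombinase in forebrain excitatory neurons, and the labels name no floxed gene in either group. Since the labels do not tie libraries to animals, the p-values measure the spread between these libraries. The tissue was whole hippocampus, so neurons, glia and vessel cells all contributed RNA, and fewer cells of a type cannot be told apart from less RNA per cell.

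Glycolysis splits glucose into pyruvate in the cytosol and yields a little ATP and NADH. Lactate dehydrogenase interconverts pyruvate and lactate, and the pyruvate dehydrogenase complex turns pyruvate into acetyl-CoA inside the mitochondrion. The citric acid cycle then oxidises the acetyl group and passes electrons to the respiratory chain, which supplies most of the ATP that neurons spend on ion pumping and synaptic transmission. Astrocytes are known for high glycolytic activity and lactate release, and neurons for the enolase isoform encoded by Eno2 and for oxidative use of pyruvate.

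The main comparison asked whether transcripts of these pathways differ in hippocampus that carries the Cre transgene. None of the 32 genes passed an adjusted p of 0.05 in edgeR's quasi-likelihood test, with p-values adjusted by Benjamini-Hochberg over all 15859 genes tested (smallest adjusted p = 0.999, and 0 members by DESeq2 or limma voom), where 0.0315% of all genes passed. All 32 were abundant enough to be tested. Levels are given in CPM, read counts scaled to a common normalised library size, as mean ± SD over 4 libraries, and fold changes are Cre over WT. The fitted fold change was below 0 for 30 members and above 0 for 2, and the median log2 fold change was -0.038 (-2.62%), against a median of 0.00036 over all genes tested, of which 49.8% lay below 0. Over the alternative fits, 26 to 31 members lay below 0. The members are not independent of each other, so the count of members below 0 carries no p of its own. The largest sizes were -6.02% for Eno2, -5.59% for Idh3a and -5.46% for Dlat. An unadjusted p under 0.05 was reached by 3 members (Eno2, Pkm and Idh3a), all with levels below WT, which is 9.38% of the members. That count was 0 without WT replicate 1 or WT replicate 3 and 6 without Cre replicate 2. In all genes tested the share was 3.5%, and 1.45% for that direction alone. In 0 members did the groups not overlap, against 2.31% of all genes.

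Taken gene by gene, the data limit how large a change in a gene's level relative to the other RNA of the whole tissue could be. Changes within a cell type, or in the total amount of RNA, are not bounded by them. For genes with near-identical copies, described below, the limit holds only for the counts as deposited. The 95% confidence intervals of all 32 members lay between -12% (the lower bound of Dlat) and 8.90% (the upper bound of Pfkl), and the standard errors of the log2 fold changes ran from 0.029 to 0.066 (median 0.040, against 0.074 over all genes tested). The members had 1059 to 47115 counts in a library and together held 1.17% to 1.26% of the counts. Library totals ran from 21339996 to 27826871 counts. In the authors' deposited table all 32 members were listed, 0 had a p-value under 0.05, and the smallest was 0.0682 for Eno2. Of all 18116 genes listed there, 501 had a p-value under 0.05, so few of the 32 would be looked for at that share.

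**Figure D1:**
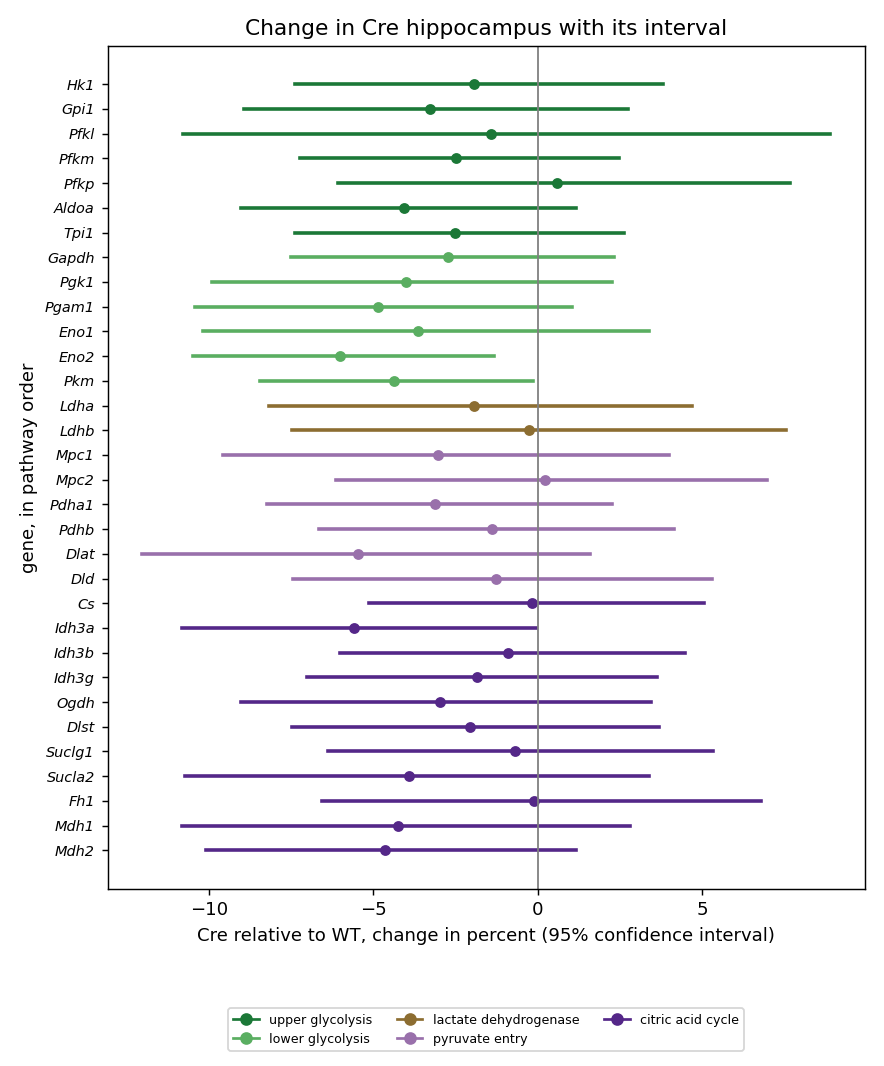
Change of each gene in Cre relative to WT in percent (x axis), with its 95% confidence interval from the edgeR fit of 4 WT and 4 Cre libraries, in pathway order (y axis) and coloured by pathway stage. The points of 30 of the 32 genes lie left of 0, and the intervals of Eno2, Pkm and Idh3a end below 0 before adjustment for the number of genes tested.

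Several of these genes have near-identical copies, which bears on what their counts mean. Enolase shows this, so a stretch of 150 coding bases of Eno1, the length of a sequencing read, is printed here beside the same positions of Eno2 and the best matching stretch of Gm4735, a processed pseudogene of Eno1, from GENCODE M21 transcripts (GRCm38). Capitals mark bases that differ from Eno1.
Eno1: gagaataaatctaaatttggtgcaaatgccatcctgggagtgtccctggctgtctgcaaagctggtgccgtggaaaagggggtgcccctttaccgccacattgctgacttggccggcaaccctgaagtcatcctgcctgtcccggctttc
Eno2: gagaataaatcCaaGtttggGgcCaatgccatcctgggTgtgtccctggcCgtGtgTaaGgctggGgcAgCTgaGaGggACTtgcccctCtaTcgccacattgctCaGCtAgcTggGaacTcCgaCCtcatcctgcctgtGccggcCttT
Gm4735: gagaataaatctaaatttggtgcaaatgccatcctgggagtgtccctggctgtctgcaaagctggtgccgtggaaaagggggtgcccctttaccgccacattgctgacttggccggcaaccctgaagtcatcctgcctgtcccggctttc
Eno2 differed from Eno1 at 33 of these 150 bases, and Gm4735 at 0. Over the whole coding sequence of 1302 bases Eno1 and Eno2 were 75.1% identical and shared 0 windows of 150 bases, so a read can be told apart between the pair of isoforms but not always between Eno1 and its copies.

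Of the windows of 150 coding bases, 93.5% in Gapdh, 100% in Pgk1, 100% in Pgam1, 59.3% in Eno1 and 31% in Mpc1 also stand letter for letter in another annotated gene. Pkm (4.57%) and Pdhb (3.02%) shared a few, and the other 25 members none. Gapdh had 90 genes sharing at least 20% of its coding words of 31 bases. The counts of such copies were small beside the member itself: 0.966% of the Gapdh counts over all 8 libraries, 0.0440% for Pgk1, 0.560% for Pgam1 and 0.196% for Eno1. The exception was Mpc1, whose pseudogene Mpc1-ps held 895 counts against 9627 for Mpc1. How reads that match several places were counted is not given in the sources used here, so the levels of Gapdh, Pgk1, Pgam1, Eno1 and Mpc1 are uncertain and their part in the fold changes was not tested. Exons of other annotated genes overlap 12 members. On the same strand Gm49759 shares 767 exon bases with Pkm (15.3% of its exon length) and Gm26513 shares 341 with Pfkm. On the opposite strand the overlaps over 100 bases were of Pfkp with Pitrm1 (748 bases), Gpi1 with Gm26762 (741), Pdha1 with Map3k15 (603), Mpc1 with 4930506C21Rik (480) and Hk1 with Hk1os (157). Without the counting settings, reads there cannot be assigned with certainty.

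Promoter sequences were found for 31 of the 32 members. Those of Eno2 and Pkm, the pair with the smallest p in glycolysis, are shown for the 250 bases before the transcription start (RefSeq, GRCm38.p6, written 5′ to 3′ on the gene's strand), with capitals at 2 motifs on either strand. The first is ACGTG, which holds the core of the hypoxia response element and reads CACGT from the other strand. The second is TATAAA, letters of the TATA box. In Eno2 its match starts at position -201 and reads TTTATA, from the opposite strand, and whether it acts as a TATA box was not tested. Pkm has several starts, and the one with a match is shown.
Eno2 (chr6:124769674-124769923, minus strand): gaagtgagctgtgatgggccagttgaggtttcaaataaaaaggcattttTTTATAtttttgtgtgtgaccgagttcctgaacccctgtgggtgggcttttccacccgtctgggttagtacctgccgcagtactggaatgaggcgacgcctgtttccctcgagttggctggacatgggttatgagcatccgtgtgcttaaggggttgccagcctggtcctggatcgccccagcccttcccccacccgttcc
Pkm (chr9:59656977-59657226, plus strand): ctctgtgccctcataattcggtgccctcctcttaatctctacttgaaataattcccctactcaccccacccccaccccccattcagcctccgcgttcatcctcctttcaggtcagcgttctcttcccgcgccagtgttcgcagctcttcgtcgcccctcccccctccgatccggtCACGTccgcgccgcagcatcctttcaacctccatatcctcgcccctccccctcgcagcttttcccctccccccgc
The motif ACGTG stood before at least 1 start in 10 of 31 members (32.3%). They were Ldha, Pgk1, Aldoa, Pgam1, Pfkm and Pkm of glycolysis, and Pdhb, Idh3g, Ogdh and Mdh1 of the later steps. Among tested genes with a promoter the share was 24.4%. A gene with more starts has more windows that can match, and these shares do not allow for that. The 31 members had 47 windows, and the 11296 tested genes had 14516. TATAAA stood before Eno2 alone among the members (3.23%), against 7.98% of tested genes. These matches describe letters in the window and were not tied to any difference between the groups.

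In upper glycolysis, hexokinase traps glucose as glucose phosphate, and the fructose phosphates made from it are split by aldolase. Of the 7 genes here, 6 had fold changes below 0 (median -0.037) and 0 had an unadjusted p under 0.05 by edgeR. Aldoa, the main aldolase gene of brain (chromosome 7, 126795234 to 126800751, minus strand, GRCm38), stood at 1745, 1628, 1745 and 1764 CPM in WT replicates 1 to 4 and 1669.6, 1728, 1617 and 1588 CPM in Cre replicates 1 to 4. Cre replicates 3 and 4 lay below all WT libraries and the other two Cre libraries inside the WT range, which WT replicate 2 extends downward: the other 3 WT libraries lay above all Cre libraries (log2 fold change -0.060, SE 0.035, 95% confidence interval -9.01% to 1.18%). Gpi1, which encodes glucose phosphate isomerase, stood at 578, 532, 590.3 and 593 CPM in WT replicates 1 to 4 and 558, 576, 549 and 533 CPM in Cre replicates 1 to 4. All 4 Cre libraries lay inside the WT range, whose lower end is WT replicate 2, and the other 3 WT libraries lay above all of them (log2 fold change -0.048, SE 0.040).

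Hk1, the hexokinase gene of brain, had 500.5 ± 19.5 CPM in WT against 491 ± 17.1 in Cre (-1.94%). Tpi1, the triose phosphate isomerase gene, had 528 ± 12.4 CPM in WT against 515 ± 17.0 in Cre (-2.51%). The phosphofructokinase genes, which encode the subunits of the main control point of glycolysis, differed in their spread. Pfkm, the muscle-type subunit gene, had 402 ± 7.42 CPM in WT against 392 ± 10.9 in Cre (-2.50%). Pfkl, the liver-type subunit gene, had 297 ± 12 CPM in WT against 293 ± 32.9 in Cre, and Cre replicates 1 (332 CPM) and 3 (263 CPM) bounded a range wider than all of WT. Pfkp, the platelet-type subunit gene, had 222 ± 5.69 CPM in WT against 223 ± 13.8 in Cre, with Cre replicate 1 the highest library at 241 CPM. Its fold change of 0.0083 (SE 0.045) was 1 of the 2 above 0 and turned to -0.032 without that library.

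In lower glycolysis, triose phosphates become pyruvate and the ATP of the pathway is made. All 6 genes had fold changes below 0, with a median of -0.062 (-4.20%), the lowest of the 5 stages. By edgeR 2 had an unadjusted p under 0.05, against 3.5% of all genes tested. The 6 genes varied together, so they are not separate readings, and differences between stages were not tested. Medians over the genes of a stage varied between libraries of a group with an SD of 0.042 here and 0.043 in upper glycolysis. Relative to the WT mean, WT replicate 2 (-0.065) lay below Cre replicates 2 (-0.016) and 3 (-0.052). Eno2, the neuronal enolase gene (chromosome 6, 124760053 to 124769673, minus strand), whose sequence stands above, had 802, 759, 809.8 and 806 CPM in WT replicates 1 to 4 and 727, 769.6, 753 and 736 CPM in Cre replicates 1 to 4. WT replicate 2 lay inside the Cre range, and the other 3 WT libraries lay above all 4 Cre libraries. The difference of -6.02% (95% confidence interval -10.5% to -1.32%, log2 fold change -0.090, SE 0.033) had an unadjusted p = 0.0167 by edgeR's quasi-likelihood test and an adjusted p = 0.999, and an exact permutation test gave p = 0.0571 (2-sided, n = 4 per group, smallest possible 0.0286).

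Pkm encodes pyruvate kinase, which makes pyruvate and ATP in the last step (chromosome 9, 59656368 to 59679375, plus strand). It stood at 1375, 1314, 1338 and 1375 CPM in WT replicates 1 to 4 and 1269, 1327, 1298 and 1272 CPM in Cre replicates 1 to 4. Cre replicate 2 alone lay inside the WT range (-4.38%, log2 fold change -0.065, SE 0.029, edgeR unadjusted p = 0.0440, adjusted p = 0.999). The exact permutation test gave p = 0.0571 for Pkm. Counts per gene do not separate its M1 and M2 splice forms. Gapdh, the glyceraldehyde phosphate dehydrogenase gene often used as a reference gene, had the most counts of this stage at 1453, 1395, 1466 and 1532 CPM in WT replicates 1 to 4 and 1382, 1440.4, 1465 and 1399.8 CPM in Cre replicates 1 to 4. The groups overlapped, and the difference was -2.72% (95% confidence interval -7.52% to 2.32%). Pgk1, the phosphoglycerate kinase gene, had 325 ± 15.3 CPM in WT against 312 ± 11.9 in Cre (-4.02%). Pgam1, a phosphoglycerate mutase gene, had 174 ± 6.36 CPM in WT against 166 ± 4.85 in Cre (-4.85%). Eno1, the enolase gene of most tissues, had 741 ± 36.8 CPM in WT against 714 ± 42.5 in Cre (-3.64%).

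**Figure D2:**
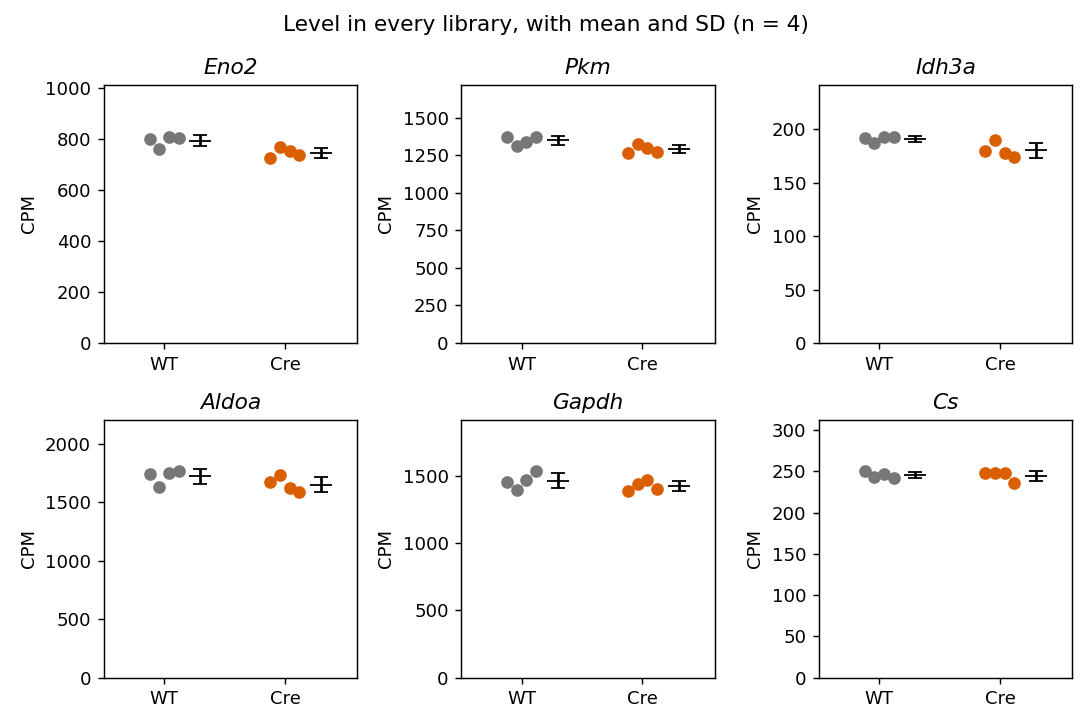
CPM (y axis, from 0) of 6 genes in each of the 4 WT and 4 Cre libraries, with the mean and SD beside the points. Eno2, Pkm and Idh3a have the smallest unadjusted p of the 32 genes, and in each of them Cre replicate 2 reaches into the WT range. In these genes and in Aldoa 3 of 4 WT libraries lie above all Cre libraries, against 2 in Gapdh and 1 in Cs.

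Lactate dehydrogenase is a tetramer of A and B subunits, and Ldhb is the form typical of heart and of oxidative neurons. Ldha stood at 235, 212, 228 and 235 CPM in WT replicates 1 to 4 and 223, 223, 233 and 213 CPM in Cre replicates 1 to 4. Ldhb stood at 287, 282, 256 and 283 CPM in WT replicates 1 to 4 and 264, 262, 299 and 280.5 CPM in Cre replicates 1 to 4. Neither separated the groups (log2 fold change -0.028, SE 0.044 for Ldha, and log2 fold change -0.0036, SE 0.050 for Ldhb), and Cre replicate 3 was the highest library for Ldhb while WT replicate 3 was the lowest.

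Pyruvate enters the mitochondrion through a carrier of MPC1 and MPC2 proteins. Mpc1 had 48.9 ± 1.53 CPM in WT against 47.5 ± 2.49 in Cre (-3.03%) and Mpc2 had 55.5 ± 2.81 CPM in WT against 55.6 ± 0.931 in Cre, with a fold change of 0.0031 (SE 0.044), the other of the 2 members above 0. Inside, the pyruvate dehydrogenase complex joins an E1 enzyme (Pdha1 and Pdhb), an E2 acetyltransferase (Dlat) and an E3 dehydrogenase (Dld). Of these 6 entry genes, 5 lay below 0 (median -0.032) and 0 had an unadjusted p under 0.05 by edgeR. Dlat stood at 146, 135, 146 and 139 CPM in WT replicates 1 to 4 and 137, 143, 127 and 128 CPM in Cre replicates 1 to 4. Cre replicates 3 and 4 were the lowest of all 8, and Cre replicates 1 and 2 lay among the WT libraries (-5.46%, 95% confidence interval -12% to 1.59%).

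Pdha1, the E1 alpha gene on the X chromosome, stood at 248, 239.8, 250.2 and 241 CPM in WT replicates 1 to 4 and 226, 243, 239 and 239.8 CPM in Cre replicates 1 to 4. Cre replicate 1 was the lowest library, and Cre replicate 2 lay within the WT range (-3.13%, 95% confidence interval -8.23% to 2.25%). The partner genes were closer to 0, with 109.8 ± 2.25 CPM in WT against 108 ± 1.35 in Cre for Pdhb (-1.40%) and 125 ± 5.22 CPM in WT against 123 ± 3.85 in Cre for Dld (-1.27%). Dld protein also serves the oxoglutarate dehydrogenase and glycine cleavage complexes.

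All 11 genes of the citric acid cycle had fold changes below 0 (median -0.030, range -0.083 to -0.0016), of which Cs and Fh1 turned above 0 with upper quartile scaling. By edgeR 1 gene had an unadjusted p under 0.05, against 3.5% of all genes tested. That gene was Idh3a, the catalytic subunit gene of NAD-dependent isocitrate dehydrogenase (chromosome 9, 54586334 to 54604661, plus strand), at 192, 187, 192 and 193 CPM in WT replicates 1 to 4 and 179.9, 190.4, 178 and 174 CPM in Cre replicates 1 to 4. Cre replicate 2 lay inside the WT range and the other 3 Cre libraries below it (-5.59%, 95% confidence interval -10.8% to -0.0477%, log2 fold change -0.083, SE 0.038, edgeR unadjusted p = 0.0484, adjusted p = 0.999). The exact permutation test gave p = 0.0571 for Idh3a. Its partner Idh3b, a regulatory subunit gene, stood at 210.4, 206, 204 and 208 CPM in WT replicates 1 to 4 and 199, 213, 204 and 205 CPM in Cre replicates 1 to 4. Here Cre replicate 2 was the highest of all 8 libraries and Cre replicate 1 the lowest (-0.906%). The third subunit gene, Idh3g, had 105 ± 1.58 CPM in WT against 104 ± 1.51 in Cre (-1.84%).

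Malate dehydrogenase closes the cycle in the mitochondrion (Mdh2) and carries reducing equivalents in the cytosol (Mdh1). Mdh1 stood at 516, 507, 496 and 533 CPM in WT replicates 1 to 4 and 449, 496, 533 and 486 CPM in Cre replicates 1 to 4. The lowest library was Cre replicate 1, and Cre replicate 3 was level with the highest WT library (-4.24%, 95% confidence interval -10.8% to 2.82%). Mdh2 stood at 238, 229, 228 and 237 CPM in WT replicates 1 to 4 and 211, 233, 226 and 218 CPM in Cre replicates 1 to 4. Cre replicate 2 lay inside the WT range and the other 3 below it (-4.63%, 95% confidence interval -10.1% to 1.15%). Cs, the citrate synthase gene whose enzyme is a common measure of mitochondrial content, had 245 ± 3.71 CPM in WT against 245 ± 6.09 in Cre, a difference of -0.175% (95% confidence interval -5.14% to 5.05%). Among the remaining cycle genes the differences ran from -3.92% for Sucla2, a succinyl-CoA ligase subunit gene, to -0.114% for Fh1, the fumarate hydratase gene. Ogdh and Dlst, of the oxoglutarate dehydrogenase complex, had -2.98% and -2.05%, and Suclg1, the shared ligase subunit gene, had -0.693%.

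The members varied together from library to library. Over the 496 pairs of members, the median Pearson correlation of log2 CPM after subtracting each group's mean was 0.392 across the 8 libraries. It was 0.757 among lower glycolysis genes, 0.567 in upper glycolysis, 0.413 in the cycle and 0.111 among the entry genes. Members of a pair share a library's depth and scaling, and pairs of other genes were not computed. The correlations are therefore a description and do not set these genes apart from others. Against the WT mean, 28 of 32 members were lower in Cre replicate 1, 17 in replicate 2, 23 in replicate 3 and 28 in replicate 4. The same count was 5, 26, 17 and 7 in WT replicates 1 to 4. By this count WT replicate 2 stood among the Cre libraries, and Cre replicate 2 was level with WT replicate 3. The summed CPM of the 32 genes was 12616, 12037, 12514 and 12776 in WT replicates 1 to 4 and 11963, 12448, 12150.3 and 11748 in Cre replicates 1 to 4, with overlap between the groups.

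**Figure D3:**
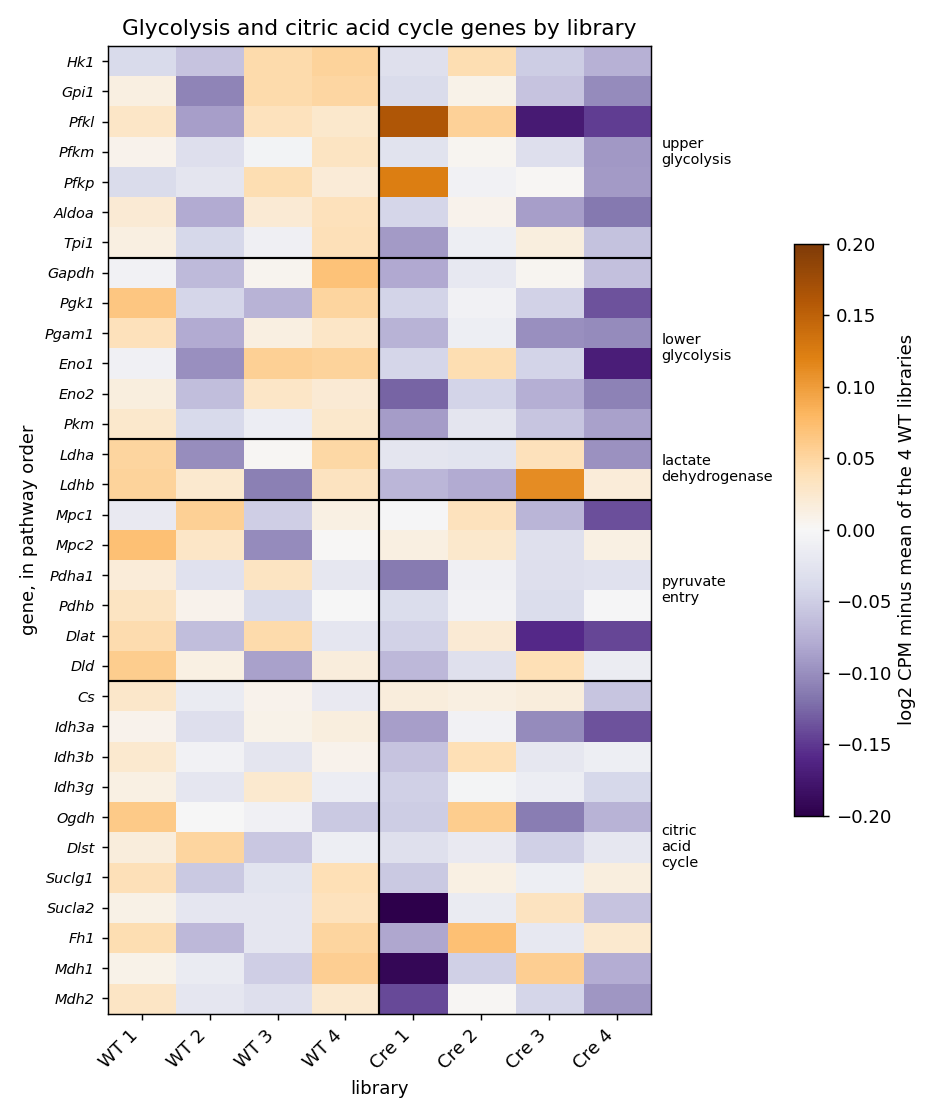
Each cell gives the log2 CPM of a gene (y axis, in pathway order) in a library (x axis) minus the mean of the 4 WT libraries, on the colour scale at the right. Cre replicates 1 and 4 are the libraries with most genes below the WT mean, WT replicate 2 is low across glycolysis, and Pfkl and Pfkp are high in Cre replicate 1 where Sucla2, Mdh1 and Mdh2 are low.

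Markers of the other cell types in the tissue were read in the same libraries. The summed level of 8 astrocyte markers ranged over 4291 to 4593 CPM in WT and 4638 to 5321 CPM in Cre, and that of 9 microglia markers over 351 to 380.2 CPM in WT and 382 to 493 CPM in Cre, without overlap in either list (median log2 fold changes 0.109 and 0.175). For single genes, the groups did not overlap in 2.31% of all tested. The microglia sums nearly met, at 380.2 CPM in WT replicate 1 and 381.7 CPM in Cre replicate 4. Beyond Cre replicate 1 (493 CPM) the highest Cre library had 392 CPM. Slc1a2 alone had 2974 ± 108 CPM in WT and 3210 ± 104 in Cre of the astrocyte sum. All 8 astrocyte and all 9 microglia markers had fold changes above 0, and 0 passed over all genes by edgeR (4 and 5 at an unadjusted p under 0.05). In all genes tested 3.5% had an unadjusted p under 0.05. The 8 oligodendrocyte markers, all above 0 (median 0.131, 2 at an unadjusted p under 0.05), ranged over 3933 to 4366 CPM in WT and 3944 to 5066 CPM in Cre. Cre replicate 1 was the highest library for all 3 lists. The 6 excitatory neuron markers ranged over 7671 to 8155 CPM in WT and 7661 to 8200.1 CPM in Cre, the 7 interneuron markers over 753 to 807 CPM in WT and 699 to 816 CPM in Cre and the 9 markers of hippocampal fields over 829 to 892 CPM in WT and 782 to 909 CPM in Cre, each with overlap. All 10 immediate early genes had fold changes above 0 (503 to 695 CPM in WT and 602 to 877 CPM in Cre, summed), with a median log2 fold change of 0.309. Of these, 5 had an unadjusted p under 0.05 and 0 passed over all genes by edgeR. Of 8 choroid plexus markers 6 were tested, with 0 above 0 and 4 at an unadjusted p under 0.05 by edgeR. Their sum was high in WT replicate 1 alone, at 1576 CPM against 122 to 158 CPM in the other 7 libraries. Endothelial (127 to 159 CPM in WT and 138 to 164 CPM in Cre), thalamus and habenula (85.5 to 96.9 CPM in WT and 79.3 to 101 CPM in Cre) and erythroid markers (29.9 to 54.2 CPM in WT and 35.1 to 47.2 CPM in Cre) overlapped between the groups. Of 5 muscle markers 4 were too low to be tested. The part of these cell types in the values of the 32 genes was not tested.

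Ratios of genes within a library do not depend on its scaling, so 9 ratios of isoenzymes or subunits were compared between the groups by exact permutation tests (2-sided, n = 4 per group). Idh3a over Idh3b was the only ratio whose groups did not overlap, at 0.914, 0.908, 0.946 and 0.930 in WT replicates 1 to 4 and 0.906, 0.895, 0.874 and 0.848 in Cre replicates 1 to 4. The Cre mean was -4.74% from that of WT (log2 difference -0.070, SE 0.025, exact p = 0.0286, the smallest possible, and 0.257 after Benjamini-Hochberg adjustment over 9 ratios). It did not pass that adjustment. Idh3a over Idh3g stood at 1.81 ± 0.0248 in WT and 1.74 ± 0.0527 in Cre (exact permutation p = 0.114, n = 4), with Cre replicate 2 inside the WT range. The numerator Idh3a is shared by both ratios.

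Ldha over Ldhb, the ratio of the tetramer's subunit genes, was 0.820, 0.752, 0.888 and 0.830 in WT replicates 1 to 4 and 0.847, 0.852, 0.779 and 0.758 in Cre replicates 1 to 4, with full overlap (log2 difference -0.023, SE 0.065). Eno2 over Eno1 was 1.09, 1.10, 1.05 and 1.05 in WT replicates 1 to 4 and 1.01, 1.01, 1.05 and 1.12 in Cre replicates 1 to 4. Cre replicates 1 and 2 were the lowest and Cre replicate 4 the highest (log2 difference -0.035, SE 0.038). Pfkm over Pfkl spread most in Cre, from 1.19 in Cre replicate 1 to 1.49 in Cre replicate 3, around a WT range of 1.32 to 1.41. The other 5 ratios, Pfkm over Pfkp, Mpc1 over Mpc2, Pdha1 over Pdhb, Idh3a over Idh3g and Suclg1 over Sucla2, had log2 differences from -0.057 to 0.051. The adjusted p of all 9 ran from 0.257 to 0.857 by the same exact permutation test (n = 4 per group).

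**Figure D4:**
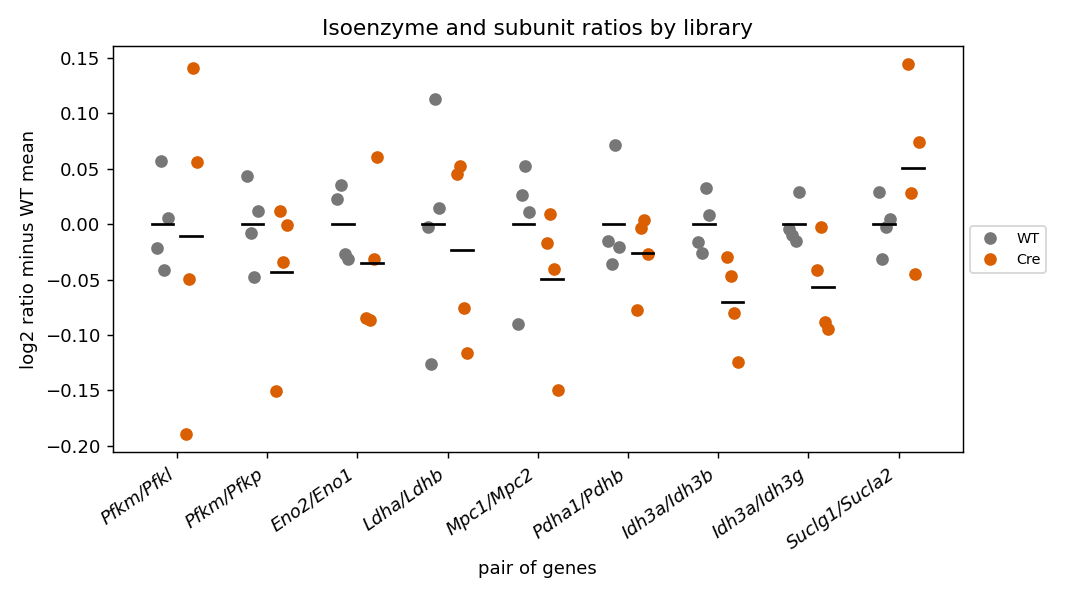
Log2 ratio of 9 gene pairs (x axis) in each library minus the WT mean of that ratio (y axis), with WT libraries in grey, Cre libraries in orange and group means as bars. The groups separate for Idh3a/Idh3b alone, and Pfkm/Pfkl shows the widest spread among Cre libraries.

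Levels can be compared between genes only per transcript length. Per kilobase of all annotated exons, Aldoa was highest in WT at 591 ± 21.4 CPM, ahead of Gapdh at 354 ± 13.7 and Pkm at 270.1 ± 5.98. Per kilobase of the principal transcript, a length chosen after the data were seen, the same 3 led in the same order, with 1139 ± 41.3 for Aldoa, 1029 ± 39.8 for Gapdh and 555 ± 12.3 for Pkm. Values on the 2 lengths differed by up to 7.16 times (Mpc2, 7.55 ± 0.383 and 54.1 ± 2.74). On the principal length the lowest member was Fh1 at 26.3 ± 1.02 CPM per kilobase, and on the exon length Mpc2.

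Within families, Pfkm made up 66.4% ± 0.522 in WT and 66.0% ± 1.84 in Cre of the summed phosphofructokinase level per exon length, and 51.2% ± 0.540 in WT and 50.8% ± 1.85 in Cre per principal transcript. Aldoa made up 72.2% ± 1.2 in WT and 70.1% ± 2.6 in Cre of aldolase per exon length, the rest being nearly all Aldoc. Per principal transcript the Aldoa share was 81.0% ± 0.921 in WT and 79.4% ± 2.04 in Cre. Eno2 made up 54.5% ± 0.569 in WT and 53.8% ± 1.15 in Cre of enolase per exon length and 43.5% ± 0.574 in WT and 42.9% ± 1.16 in Cre per principal transcript, so the leading isoform depended on the length used. Ldhb led lactate dehydrogenase on both lengths, with 72.0% ± 1.37 in WT and 72.3% ± 1.18 in Cre and 62.2% ± 1.6 in WT and 62.6% ± 1.38 in Cre per exon length and per principal transcript, in that order. Per exon length Sucla2, of the ATP-forming ligase, made up 91.3% ± 0.434 in WT and 91.1% ± 0.914 in Cre of the beta subunits. The rest was Suclg2, of the GTP-forming ligase. Per principal transcript the Sucla2 share was 93.2% ± 0.347 in WT and 93.0% ± 0.732 in Cre. In each family the Cre mean lay within a few percentage points of the WT mean, and these shares were described without a test.

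Of 75 other genes of these pathways, 67 were tested, and 8 (Pdha2, Gapdhs, Pklr, Ldhc, Pgk2, Fbp1, Fbp2 and Pck1) were too low. None passed by edgeR's quasi-likelihood test, DESeq2 or limma voom, 0 had an unadjusted p under 0.05 by edgeR, and 33 lay below 0 and 34 above (median 0.0055). Of all genes tested 0.0315% passed, 3.5% had an unadjusted p under 0.05 and 49.8% lay below 0. At that share few of the 67 would be looked for. The count at an unadjusted p under 0.05 rose to between 1 and 3 in several alternative fits (3 without WT replicate 2). The succinate dehydrogenase genes Sdha, Sdhb, Sdhc and Sdhd differed by -1.83%, -1.91%, 2.86% and -1.92%, and Suclg2 by -1.40%. Aldoc, the astrocytic aldolase gene, had 741 ± 53.2 CPM in WT against 787 ± 77.8 in Cre (log2 fold change 0.087, SE 0.065), opposite in sign to Aldoa (-0.060). The difference between the pair was not tested.

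The glucose transporter genes Slc2a1, of vessels and glia, and Slc2a3, of neurons, had 72.8 ± 10.9 CPM in WT against 74.8 ± 4.64 in Cre and 148 ± 11.1 CPM in WT against 146 ± 3.16 in Cre, in that order. Hk2, an inducible hexokinase gene, had 7.56 ± 0.603 CPM in WT against 7.98 ± 1.52 in Cre. Of the 8 other pathway genes with the smallest unadjusted p, 7 are given here, and they were split in direction. Slc2a4, the insulin-responsive glucose transporter gene, had 0.429 ± 0.141 CPM in WT against 0.720 ± 0.294 in Cre (log2 fold change 0.747, SE 0.348, unadjusted p = 0.0517 by edgeR). Bpgm (6.34%), the bisphosphoglycerate mutase gene, Pgm1 (17.9%), a phosphoglucomutase gene, and Pygb (4.74%), the brain glycogen phosphorylase gene, had values above WT. Pcx (-5.19%), the pyruvate carboxylase gene, and Got1 (-4.80%) and Got2 (-4.00%), the aspartate aminotransferase genes of the malate-aspartate shuttle, had values below. Pgm2, another phosphoglucomutase gene, was the only one of the 67 whose groups did not overlap (against 2.31% of all genes tested), at 67.7, 67.2, 68.8 and 69.9 CPM in WT replicates 1 to 4 and 65.3, 66.8, 66.8 and 65.3 CPM in Cre replicates 1 to 4 (-3.41%, unadjusted p = 0.177 by edgeR), and was named after its values were seen.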

How the data were processed

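Poly(A) RNA of hippocampus was sequenced in 8 libraries, paired-end with 150 bases on a single lane, per the labels' protocols. The values the authors deposited are raw whole-number counts, with rows named by gene symbol. STAR 2.6.1d, featureCounts and edgeR 3.11 with GRCm38 are named, per the submitters' processing notes. Not given in the sources used here are the annotation release, the strand setting and the treatment of reads with several matches. The authors' deposited comparison gives a log2 fold change, a log2 abundance, a signed fold and a linear abundance (both handled as a score) and a p-value per gene, not stated to be adjusted.

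Counts were tested with edgeR 4.0.16 in R 4.3.3 (TMM, filterByExpr with minimum count 10 and minimum total 15, quasi-likelihood, no covariate, 2-sided), which left 15859 of 46078 entries with 99.9% of counts or more. DESeq2 1.42.0, limma voom 3.58.1, other scalings and filters, a replicate block and fits without each library were the alternatives. The procedure was tested on simulated data with absolute log2 fold changes of 0.5 (92% of 100 genes called) and 1 (100% of 100). Of the 15513 unchanged genes 15 were called. Changes as small as those of the members were not simulated, so the simulation does not show whether they would be called. Exact permutation tests (scipy 1.17.1) used log2 CPM with prior count 2 for single genes, and log2 ratios without a prior. Exon lengths, positions and coding windows are from GENCODE M21 (GRCm38). The table repeats 272 symbols, none of them a member, and Aldoa, given to 2 loci in GENCODE, was matched to the locus that shares a boundary with RefSeq.

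Members, lists and tests were chosen with earlier results of these data known. Values per library are given for the 2 members of each stage with the smallest p, the member with most CPM in each stage, and both genes of a ratio with an unadjusted p under 0.05. Named beyond that are other pathway genes, the 8 with the smallest p and 10 listed ones, of which 2 are not reported here.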

Additional observations from a re-analysis of the deposited data

Results flagged for a closer look

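In each group of 4 libraries, a library was singled out when its gap to the nearest of the others divided by the group's whole range exceeded Dixon's 95% limit. This was done for 106 groups of values (the 32 genes, 9 ratios and 12 marker lists in WT and in Cre). It singled out 7, and chance flags about 1 in 20.

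WT replicate 2 was low for 3 glycolysis genes. Pfkl stood at 279 CPM against 302 to 304 CPM in the other WT libraries, Aldoa at 1628 CPM against 1745 to 1764 CPM, and Eno2 at 759 CPM against 802 to 809.8 CPM. Without WT replicate 2 the log2 fold change of Eno2 was -0.110 in place of -0.090. Cs stood at 236 CPM in Cre replicate 4 against about 248 CPM in each of the others. Among marker lists, WT replicate 1 had 1576 CPM of choroid plexus markers against 122 to 146 CPM, and 3933 CPM of oligodendrocyte markers against 4298 to 4366 CPM. Cre replicate 1 had 493 CPM of microglia markers against 382 to 392 CPM.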

How the results depend on the processing

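The count of members called stayed at 0 in all 15 alternative fits, and so did the count of other pathway genes called. All genes called numbered 4 to 7 over these fits, and the median member log2 fold change ran from -0.051 to -0.026, without a change of sign. The count of members at an unadjusted p under 0.05 was less steady. It was 3 in the reported fit, 1 with upper quartile factors, 1 with no low-count filter, 1 with a stricter filter, and 0 to 6 in the 8 fits without 1 library (0 without WT replicate 1 or 3, 5 without WT replicate 2, 6 without Cre replicate 2, and 1 without WT replicate 4, Cre replicate 1 or Cre replicate 4). The cause was not tested.

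Whether replicate numbers pair the libraries is not settled by these values. The correlations of same-numbered deviations were 0.268, -0.0917, 0.0251 and 0.168. Between WT and Cre libraries of different number they ran from -0.253 to 0.154. With the replicate block, 0 members had an unadjusted p under 0.05 and 6 genes were called, and the Idh3a over Idh3b ratio, paired by number, had an exact sign-flip p = 0.125 (the smallest possible).

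Of the 32 members, 23 kept the sign of their fold change in all alternatives, Eno2 (-0.110 to -0.077), Pkm (-0.078 to -0.056) and Idh3a (-0.109 to -0.064) among them. The other 9, all close to 0, changed sign somewhere. With upper quartile factors Ldhb was 0.0031, Cs 0.0048 and Fh1 0.0052, and with no low-count filter Mpc2 was -9.2e-05. Leaving out 1 library gave log2 fold changes of -0.086 to 0.027 for Pfkl, -0.032 to 0.042 for Pfkp, -0.044 to 0.021 for Ldhb, -0.028 to 0.027 for Mpc2, -0.045 to 0.0013 for Dld, -0.0087 to 0.017 for Cs, -0.031 to 0.0022 for Idh3b, -0.027 to 0.0049 for Suclg1, -0.026 to 0.024 for Fh1. Likewise the Pfkm/Pfkl log2 ratio difference ran from -0.061 to 0.049 and the Ldha/Ldhb difference from -0.065 to 0.014.

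With 4 libraries a group and standard errors of 0.029 to 0.066, differences of a few percent lie within the intervals. The lowest count of a member in a library was 1059. Levels per length changed with the length used, as given for the exon union and the principal transcript, a choice added after the data were seen.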
